A study of Arabidopsis thaliana with 2 samples.

Results

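The deposited list of chromatin regions recovered with the Arabidopsis thaliana transcription factor ERF115 held 612 peaks, and 220 of them lay inside a gene by the label the authors gave each peak. These are the peaks whose label began with coding, UTR or intron, on either the 5' or the 3' side, and they made up 35.9% of the list (95% Clopper-Pearson interval 32.1 to 39.9%, counting error only). The other 392 peaks were labelled intergenic. The in-gene peaks were chosen by that label alone, so their scores, widths and sides were not used in choosing them.

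The study had 2 groups of 1 library each. Both came from PSB-D, a dark-grown cell suspension of the Landsberg erecta ecotype, fixed with 0.75% formaldehyde for 10 minutes and harvested 2 days after subculturing. In the ERF115 group, the genotype 35S::ERF115-HBH expressed the factor from the constitutive 35S promoter with the HBH tag, by which chromatin was purified on nickel and then streptavidin beads. The mock group was wild-type cells without the tagged protein, put through ChIP as a negative control. Cultured cells with constitutive expression stand in for root tissue here, and a suspension culture holds no root stem cell niche. The 2 deposited files both belong to the tagged library, so read counts and the mock's own values were not analysed here and the depth behind a peak is unknown.

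AP2/ERF proteins, to which ERF115 belongs, are plant transcription factors that bind short GC-rich elements, typically in the promoters of their target genes. A ChIP-seq peak marks where fixed DNA was recovered more often than in a control, and in a compact genome such as that of Arabidopsis a peak of ordinary width can span a promoter, a whole gene and its neighbour. The label therefore places 1 position within each peak, not the entire peak. How the authors drew the line between labels, and what separates 5' from 3' in a coding or intron label, was not stated in the files or labels. Peak sequences were not analysed here.

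Coding labels were the most frequent of the in-gene labels, with 126 peaks. They were split almost evenly, with 62 on the 5' side and 64 on the 3' side. UTRs, the untranslated ends of a transcript, held 72 peaks, of which 49 were in the 5' and 23 in the 3' UTR. Introns held 22 peaks, of which 13 were on the 5' and 9 on the 3' side. Each of the 220 peaks was assigned to a different locus, and 219 of these loci were found in the RefSeq gene table, 212 of them as protein-coding genes. With 27444 nuclear protein-coding genes in that table, 0.772% had an in-gene peak and 1.29% an intergenic one. Only 2 protein-coding genes had both.

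In-gene peaks sat less often on the 5' side than intergenic peaks. A 5' label was carried by 124 of 220 in-gene peaks (56.4%, 49.5 to 63.0%) and by 275 of 392 intergenic peaks (70.2%, 65.4 to 74.6%), against 65.2% of all peaks. The gap of 13.8 percentage points passed the two-sided Fisher's exact test (adjusted p = 0.00456, adjusted over the 6 comparisons made). Within genes the sides also differed by class. Coding peaks had a 5' share of 49.2% (40.2 to 58.3%), while UTR peaks had one of 68.1% (56.0 to 78.6%), and this difference passed as well (Fisher's exact test, adjusted p = 0.0347). The 5' share of UTR peaks was thus close to the intergenic value, and coding peaks were the class with the lowest share. Whether 5' and 3' mean the same in each class of label was not stated, so the shares may not measure the same thing. Intron peaks had a 5' share of 59.1%, with an interval from 36.4 to 79.3% that covers both other classes. The tests compare peaks of 1 list and not replicate libraries, and peaks close together are not independent. The first difference was no longer called among peaks scoring at least 100 (11.7 points, adjusted p = 0.350), and the second was no longer called there, among the 306 highest-scoring peaks or with close peaks counted once (adjusted p from 0.0948 to 0.640, Fisher's exact test).

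**Figure D1:**
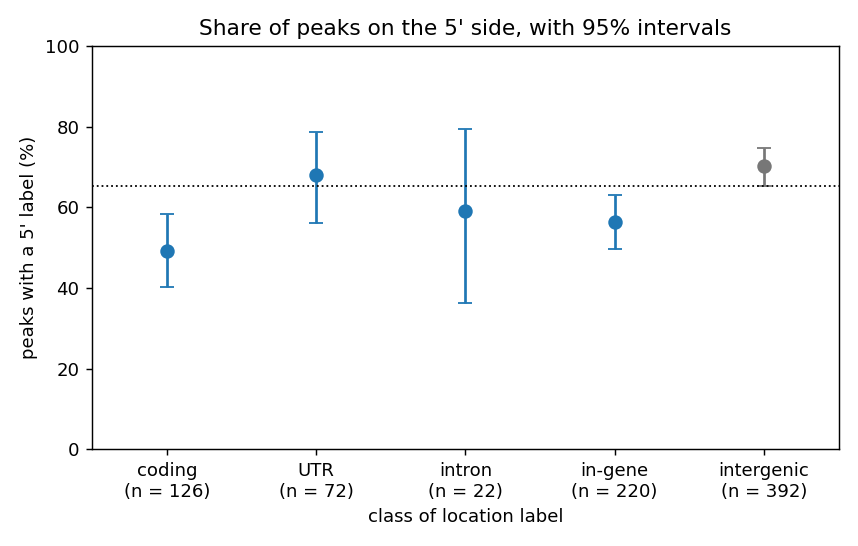
Share of peaks with a 5' label, in percent, for coding, UTR and intron peaks, for all in-gene peaks and for intergenic peaks; bars are 95% Clopper-Pearson intervals and the dotted line is the share over all peaks, 65.2%. Coding peaks lie at 49.2%, below UTR peaks at 68.1% and intergenic peaks at 70.2%.

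The scores of in-gene and intergenic peaks overlapped over nearly their whole range. The score is the authors' value for each peak, which the peak caller MACS computes as 10 times the negative log10 of a p-value. The in-gene scores lay between 50.17 and 440.95, and their median was 81.2 (quartiles 61.8 and 121). The intergenic scores lay between 50.01 and 537.85, and their median was 76.7 (quartiles 60.4 and 112). A score above the median of the list, 78.9, was reached by 117 of 220 in-gene peaks (53.2%, 46.4 to 59.9%) and 189 of 392 intergenic peaks (48.2%, 43.2 to 53.3%), a gap short of the threshold (adjusted p = 0.273, Fisher's exact test). The share scoring at least 100 was 33.2% in genes (73 peaks), close to the 31.4% of all peaks. In-gene peaks held similar shares at the head of the list and further down. They made up 7 of the 20 peaks with the highest scores, 18 of the first 50 and 40 of the first 100. Between 33.6% of peaks scoring 50 to 60 and 38.9% of those scoring 100 to 200 were in genes, and of the 35 peaks scoring at least 200 it was 12 (34.3%, 19.1 to 52.2%).

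**Figure D2:**
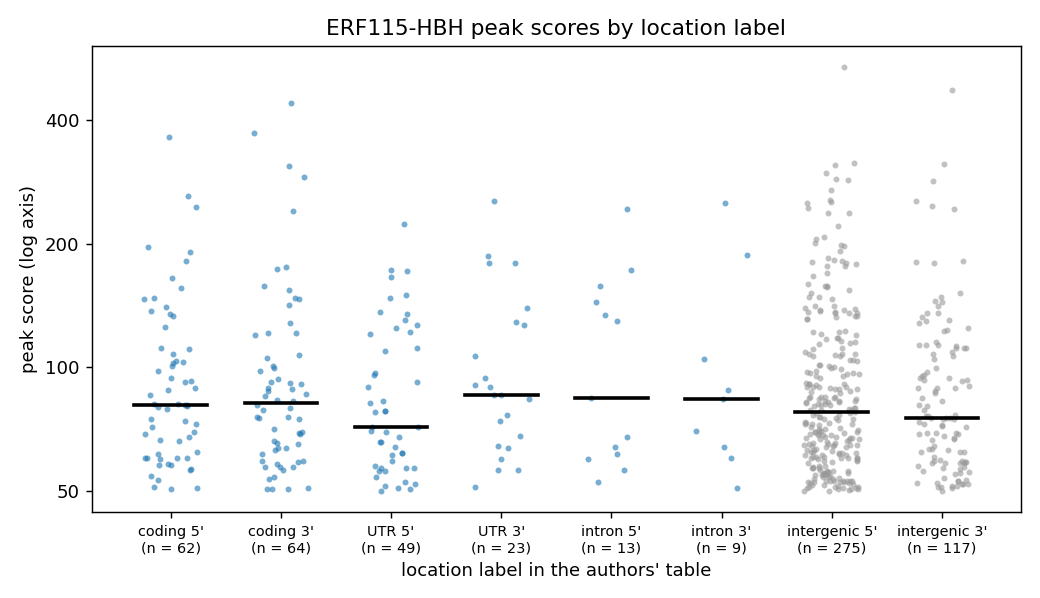
Peak score on a log axis for every peak, by location label; in-gene labels are blue, intergenic labels grey, and black bars are medians. All 8 labels start near 50, and their medians lie between 71.7 for UTR 5' and 85.6 for UTR 3'.

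The labels differed little in score, and more in width. The lowest median score was that of 5' UTR peaks, 71.7, and the highest that of 3' UTR peaks, 85.6. Coding peaks had medians of 81.2 on the 5' and 81.9 on the 3' side. Peaks in 5' UTRs were also the narrowest, with a median of 1682 bp (1353 bp at the lower and 2209 bp at the upper quartile), and the 9 intron 3' peaks the widest, with 3557 bp (2323 and 3751 bp). Coding 3' peaks, with a median of 2387 bp, had an upper quartile of 3712 bp against 2637 bp for coding 5' peaks. These orders were read from the data and carry no test.

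As a whole, in-gene peaks were 2066 bp wide at the median (quartiles 1491 and 2951 bp), and intergenic peaks 1831 bp (1342 and 2885 bp). Together the in-gene peaks covered 547 kb. A width above the median of the list was found for 119 of 220 in-gene peaks (54.1%, 47.3 to 60.8%) and 187 of 392 intergenic peaks (47.7%, 42.7 to 52.8%), a gap short of the threshold (adjusted p = 0.273, Fisher's exact test). Without the UTR peaks the gap passed (adjusted p = 0.0393, Fisher's exact test). There, 87 of the 148 coding and intron peaks were above the median width, 12.1 points more than intergenic peaks. UTR peaks had the lowest median of the in-gene classes, 1782 bp, though 3' UTR peaks had 2260 bp. Leaving that class out favours a wider in-gene side and is no separate support. With the upper quartile of width as threshold, the gap was 1.42 points (adjusted p = 0.698, Fisher's exact test). Width said little about score: across the 220 in-gene peaks Spearman's rho was 0.11, and across intergenic peaks 0.09.

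**Figure D3:**
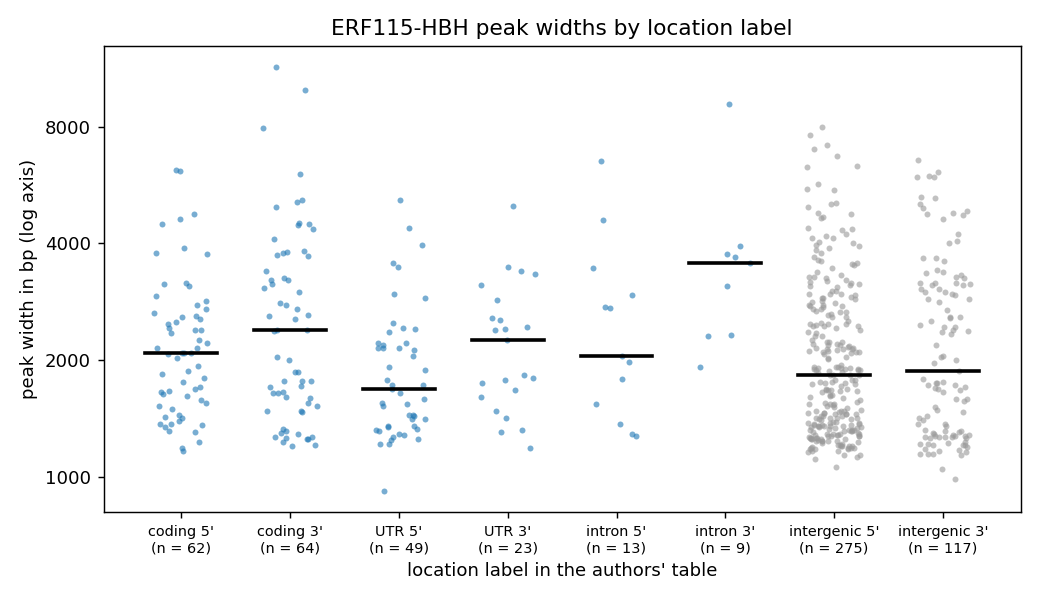
Peak width in bp on a log axis for every peak, by location label; in-gene labels are blue, intergenic labels grey, and black bars are medians. Peaks in 5' UTRs have the lowest median, 1682 bp, and the 9 intron 3' peaks the highest, 3557 bp; the widest peak, 11391 bp, is labelled coding 3'.

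The position that the authors gave for each peak lay a median of 227 bp from the peak's midpoint for in-gene peaks and 194 bp for intergenic peaks, and the shares above the median of the list did not differ detectably (Fisher's exact test, adjusted p = 0.273). It was closest to the midpoint in 5' UTR peaks, with a median of 118 bp, and farthest in intron 3' peaks, with 785 bp. As a share of the distance from the midpoint to the peak's edge, the medians were 15.0% and 42.6%. A broad peak with an off-centre position can reach well beyond the labelled gene.

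The highest in-gene score belonged to AFB2 (AT3G26810), an F-box protein of the TIR1 family that binds auxin and marks Aux/IAA repressors for degradation. Its peak, chr3:9869684-9871162 in the files' TAIR10 coordinates, was labelled coding 3', had a score of 440.95 and was 1479 bp wide, narrower than most in-gene peaks. It ranked 3 in the whole list. The second in-gene peak, at AT3G52470 (chr3:19445950-19453890, coding 3'), scored 371.99 and was 7941 bp wide. AT5G49665 followed with 362.92 and a coding 5' label. ABCG43 (AT4G15236), an ATP-binding cassette transporter, came next with 308.32 at chr4:8701510-8703373, coding 3'. A further in-gene peak, at AT4G15260, lay 9579 bp from that of ABCG43 and scored 173.48, also coding 3'. WAVH1 (AT2G22680), a homolog of the root-waving ubiquitin ligase WAV3, had a coding 3' peak of 4353 bp with a score of 290.37. Of these 5 highest in-gene peaks, 4 were thus coding 3', a label of 29.1% of all in-gene peaks.

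The other in-gene peaks among the 20 highest scored between 260.63 and 175.15, and all 6 labels were represented in the 20. The 3 highest of each label are named with them. AT5G03870 had a coding 5' peak with a score of 260.63. AT5G61880, also named PAM16L after a subunit of the mitochondrial protein import motor, led the 3' UTR peaks with 254.42, ahead of AT3G52710 (186.95), AT1G80450 (180.02) and AT1G69910 (179.24). BG_PPAP (AT5G42100), a beta-1,3-glucanase of plasmodesmata, the channels between plant cells, led the intron 3' peaks with 251.8. Its peak, chr5:16824025-16833168, was 9144 bp wide. AT1G15800 (187.67) and AT5G22190 (104.58) followed in that label. In intron 5' the leading peaks were at AT2G21500 (242.92), AT3G15720 (172.87) and AT4G00905 (157.57). The 5' UTR peaks were led by AT3G58140 (223.52), then AFR (AT2G24540, 172.17), an F-box protein of far-red light signalling, and AT1G71110 (171.82). The remaining peaks of the 20 highest were labelled coding. They were at AT3G22440 (246.26), AT4G03965 (240.13), the tRNA modification gene TRM10 (195.85), AT3G62160 (190.91), AT3G50790 (181.32) and AT1G78210 (175.15).

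At the other end, the 3 in-gene peaks with the lowest scores were at AT3G63020 (50.54), AT3G26920 (50.53) and AT1G63830 (50.17), just above the lowest score of the whole list. The 5 widest in-gene peaks were those of SAUR36 (AT2G45210, 11391 bp, score 105.48), AT2G45600 (9967 bp, score 121.34), BG_PPAP, AT3G52470 and PCR2 (AT1G14870, 6512 bp, score 144.58). SAUR36 belongs to the small auxin up RNA family and PCR2 takes part in metal ion transport. Of these 5, 3 were coding 3' and 2 were in introns, beside 64 coding 3' and 22 intron peaks among all 220. Small genes such as the SAUR genes are shorter than a peak of this width, so the label names the gene under the authors' position and leaves the rest of the peak undescribed.

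To describe which kinds of genes carried an in-gene peak, 19 lists of gene families and pathways were drawn up by symbol, and 14 of them had at least 1 such gene. Genes without a matching symbol or synonym are in no list. Counts and absences below therefore hold for the listed genes and not for whole families. In all, 24 listed genes had an in-gene peak, with scores from 50.74 to 440.95 and a median of 80.1, near the 81.2 of all in-gene peaks. A coding 3' label was carried by 13 of the 24, and by 64 of all 220 in-gene peaks (29.1%). The lists were chosen with earlier results of these data known. No enrichment was tested, and the shares below are to be read against 0.772% of all protein-coding genes with an in-gene peak and 1.29% with an intergenic one.

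Among transcription factor families, AP2/ERF genes had 5 members with an in-gene peak of 88 listed (5.68%), beside 7 with an intergenic peak (7.95%). CEJ1 has one of each. ERF12, a repressor-type ERF, had a 3' UTR peak with a score of 139.6. CEJ1 (78.8), also called DEAR1, ERF6 (75.9), ERF5 (63.76) and the cold-response activator CBF1 (50.74) all had coding 3' peaks, between 1297 and 2703 bp wide. The floral regulator AP2 (AT4G36920), which the list does not hold and which was noticed after the values were seen, also had a coding 3' peak, with a score of 56.37. ERF115 itself (AT5G07310) is not among the in-gene loci.

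Of 72 WRKY genes, known for defence and stress responses, 2 had an in-gene peak (2.78%) and 5 an intergenic one (6.94%). They were WRKY57, intron 5' with a score of 133.98, and WRKY15, coding 5' with a score of 125.44 and a width of 6194 bp. Both scored above the upper quartile of in-gene peaks, 121. Of 125 MYB genes 2 had an in-gene peak (1.60%) and 1 an intergenic one. The former were MYB11 (75.33), a flavonol regulator, and the stress regulator MYB2 (57.37), both coding 3'. Single members were found for NAC (NAC027, intron 5', 64.08, of 100 genes), bZIP (TGA10, intron 3', 88.3, of 37) and GRAS (AT5G41920, also called SCL23, coding 3', 63.75, of 26), where 3, 3 and 2 genes had an intergenic peak. No peak of either kind was assigned to any of the 25 bHLH or 87 homeodomain genes listed. Members of these families without a matching symbol were not looked at. Counted together, 7 of the 12 in-gene peaks at listed transcription factors were coding 3' (58.3%) and none was in a 5' UTR, whereas 57 of the other 208 in-gene peaks were coding 3' (27.4%) and 49 were in a 5' UTR. The other 208 include regulators outside the lists, such as AP2 (coding 3') and ZF2 (coding 5'). The contrast is thus between listed and unlisted genes. It was seen in the data and has no test.

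**Figure D4:**
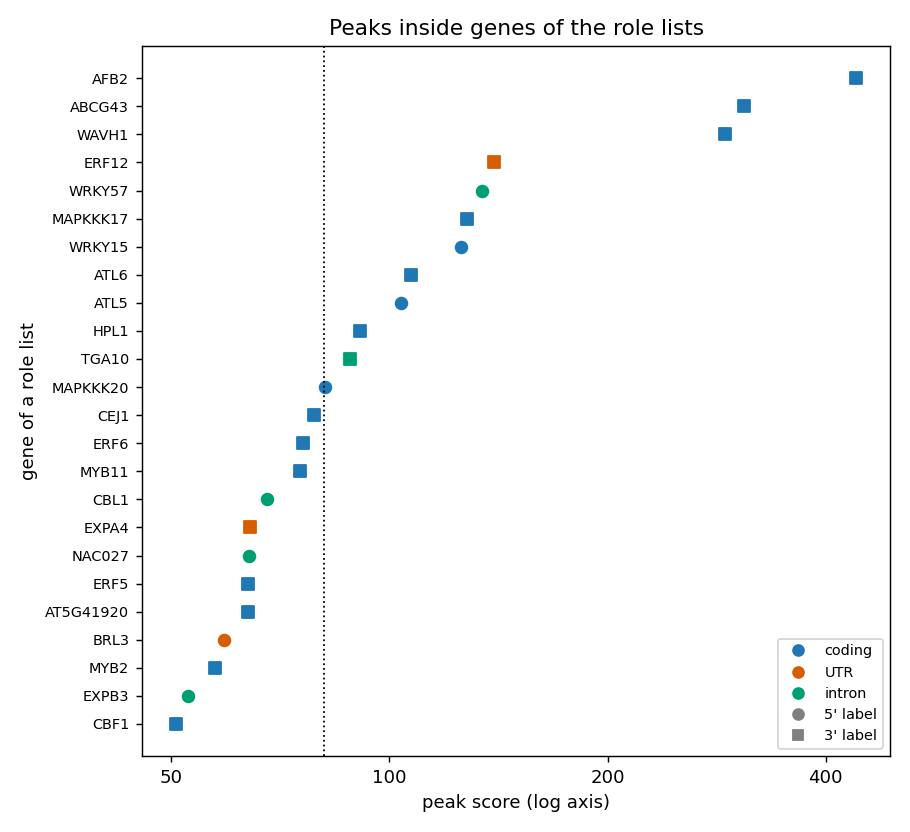
Score on a log axis of the in-gene peaks at the 24 genes of the role lists; colour gives the class of label, circles are 5' and squares 3' labels, and the dotted line is the median of all in-gene peaks, 81.2. AFB2, ABCG43 and WAVH1 stand above the rest, from 290.37 to 440.95, and the other genes lie at 139.6 or below.

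In the hormone receptor and signalling lists, 5 genes had an in-gene peak. AFB2 was 1 of 6 auxin receptor genes (16.7%) and BRL3, a brassinosteroid receptor related to BRI1, 1 of 4 in its list (25.0%), and neither list had an intergenic peak. Each of these shares rests on a single gene. The BRL3 peak scored 59.06 in the 5' UTR, and its width of 5191 bp was the largest of all UTR peaks. In the MAP kinase cascade 2 of 53 genes had an in-gene peak (3.77%) and 1 an intergenic one (1.89%). The former were the upstream kinases MAPKKK17 (coding 3', 128.13) and MAPKKK20 (coding 5', 81.46). The peak of MAPKKK20 lay 12399 bp from the coding 3' peak of CEJ1. Of 91 calcium sensor and kinase genes, the calcineurin B-like sensor CBL1 had one (1.10%, intron 5', score 67.74), beside 2 genes with an intergenic peak (2.20%).

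Of the 54 U-box and RING ubiquitin ligase genes listed by symbol, 3 had an in-gene peak (5.56%) and none an intergenic one. Beside WAVH1 they were ATL6 (coding 3', 107.16) and ATL5 (coding 5', 103.79), membrane-anchored RING proteins. In the wall-loosening expansins and the xyloglucan enzymes it was 2 of 70 (2.86%), EXPA4 (3' UTR, 64.27) and EXPB3 (intron 5', 52.72), beside 3 genes with an intergenic peak (4.29%). ABCG43 was the single member of 129 ABC transporters (0.775%, with as many intergenic). HPL1, which makes green leaf volatiles, was the single member of 234 cytochrome P450 genes (0.427%, coding 3', score 91.18), beside 2 with an intergenic peak (0.855%). None of the listed 64 UDP-glycosyltransferase, 106 cell cycle and 11 phytosulfokine pathway genes had a peak inside the gene. Intergenic peaks were assigned to 2 (3.13%), 1 (0.943%) and 1 (9.09%) of them. With the depth unknown, lack of a peak does not show lack of binding.

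The authors marked some peaks TP, and no file or label says what the mark means. It stood beside 22 of 612 peaks (3.59%), and beside 5 of the 220 in-gene peaks (2.27%, 0.742 to 5.22%) against 17 of 392 intergenic peaks (4.34%, 2.55 to 6.85%), a difference short of the threshold (adjusted p = 0.273, Fisher's exact test). The 5 marked in-gene peaks were at AT3G15720 (intron 5', 172.87), AT1G78830 (119.64), AT5G40150 (79.57), CEJ1 (78.8) and AT1G75590 (58.07), also called SAUR52. The last 4 were coding 3', as were 29.1% of all in-gene peaks, and no UTR or coding 5' peak was marked.

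CEJ1 and AT5G01830, which carries the symbol SAUR21, were the 2 loci with both an in-gene and an intergenic peak. In each case the labels were coding 3' and intergenic 5'. At CEJ1 the intergenic peak (chr3:18632252-18633733) scored 60.33 and the coding one (chr3:18634157-18635804) 78.8. At SAUR21 the order was the other way round, with 97.11 for the intergenic peak (chr5:320068-321370) and 50.78 for the coding one (chr5:321743-323266). Each pair therefore lies within a few kb, and the order of the scores is not shared.

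No chromosome stood out in its share of peaks inside genes. This share of the peaks on a chromosome ran from 30.3% on chromosome 2 (20.2 to 41.9%) to 39.5% on chromosome 5 (31.5 to 47.8%), with overlapping intervals on all 5 nuclear chromosomes. Another peak lay within 20 kb of 78 in-gene peaks (35.5%) and of 140 intergenic peaks (35.7%). Among in-gene peaks alone there were 18 neighbouring pairs under 20 kb apart, and in 2 of these pairs the genes stood next to each other in the order of protein-coding genes, AT1G67420 with AT1G67430 and AT3G23940 with AT3G23950.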

How the data were processed

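The submitters' processing notes name BWA 0.5.9, MACS 1.4.2, Picard, SAMtools 0.1.18 and CASAVA 1.8.2, and the TAIR10 build, with no role or order. Parameters, filters and the treatment of reads from repeated sequence were not stated there. The authors deposited a peak list with a score per peak, not normalised across libraries, and an annotated copy with the locus, label and position. Scores served only for description, ranking and thresholds inside the list. Both files were joined by peak name, and starts were written 1-based. Symbols came from a RefSeq table of assembly TAIR10.1, whose coordinates served only for the order of genes.

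In-gene and intergenic peaks were compared by two-sided Fisher's exact tests (scipy 1.17.1, Python 3.11.15), with counts above the median of all peaks for score, width and offset, and Benjamini-Hochberg adjustment over 6 comparisons at a threshold of 0.05. The code was tested on simulated data. Intervals are 95% Clopper-Pearson and cover counting error only. The members and lists were chosen with earlier results of these data known. One pattern of the AP2/ERF list was narrowed after it had taken in a polyol transporter.

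Named were the in-gene peaks with the 20 highest and 3 lowest scores, the 3 highest of each label, the 5 widest, those of list members, those with the mark, and loci with several peaks. Motif searches and protein lengths were planned and not run, since no sequence was used here.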

Additional observations from a re-analysis of the deposited data

How the results depend on the processing

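No paired analysis was possible because there was a single library in either group, and for the same reason no replicate was left out. The share of peaks inside genes, 35.9%, lay between 36.6 and 38.2% under higher score thresholds and with peaks under 20 kb from a higher-scoring one left out, and was 27.4% without UTR peaks, which removes part of the group itself. The lower 5' share in genes kept its direction under the 4 alternatives run; it lost its call among the 192 peaks scoring at least 100 (-11.7 points, Fisher's exact test, adjusted p = 0.350). The lower 5' share of coding than of UTR peaks lost its call under all 3 alternatives run: -8.57 points among the 306 peaks with the highest scores, -11.6 points at scores of at least 100 and -17.7 points with close peaks left out (Fisher's exact test, adjusted p = 0.640, 0.435 and 0.0948). Fewer peaks were tested in each of these. The difference in width, not called, passed without UTR peaks (12.1 points, Fisher's exact test, adjusted p = 0.0393), which leaves out the in-gene class with the lowest median width. At the upper quartile of width it was 1.42 points (Fisher's exact test, adjusted p = 0.698). For score, offset and the mark, no alternative changed the direction or made a call. Alternatives for motifs and protein length were not run. The unknown depth limits what a missing peak can show.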

Other observations

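Several in-gene peaks lay at genes of kinds that the lists do not cover. All genes of this part were picked after their values were seen, and no test was made. Both genes for the clathrin heavy chain, the main coat protein of endocytic vesicles, had a 5' UTR peak of much the same width on chromosome 3: CHC2 (AT3G08530, chr3:2594771-2596063, 1293 bp) with a score of 165.83 and CHC1 (AT3G11130, chr3:3491068-3492420, 1353 bp) with 135.03. The 2 copies are closely related, and whether reads shared between them bear on either peak was not tested. Of 80 protein-coding genes named SAUR, 3 had an in-gene peak (3.75%, against 0.772% of all protein-coding genes). By symbol or synonym these were SAUR36 (105.48), SAUR52 (AT1G75590, 58.07) and SAUR21 (AT5G01830, 50.78). Whether each locus encodes a SAUR protein was not checked. The peaks of these loci were labelled coding 3', as were 64 of all 220 in-gene peaks (29.1%). Their widths ran from 1261 bp at SAUR52 to 11391 bp at SAUR36.

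Other single genes with an in-gene peak are given as values and form no group. The zinc-finger repressor ZF2, also called AZF2, had a coding 5' peak of 4628 bp with a score of 135.21. P5CS1 of proline synthesis had a 5' UTR peak (89.52), and UGE2, which interconverts UDP-glucose and UDP-galactose, a coding 5' peak (80.99). The NADPH oxidase RBOHD had an intron 5' peak (59.91) and the ion channel DND1 a 5' UTR peak (50.87). AT1G30755, also named PSK SIMULATOR 2 and so tied by name to the phytosulfokine signalling of the series title, had a 5' UTR peak with a score of 57.49.

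The labels do not always match the gene type in the RefSeq table. AT2G44255 (147.31) and AT3G21781 (62.32) are long non-coding RNA genes there, yet their peaks were labelled coding 5'. AT1G67792, likewise a long non-coding RNA gene, had a 5' UTR label (150.45). Another 4 in-gene peaks were at pseudogenes, all with UTR labels and scores from 55.98 to 83.65.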
